A study of Mus musculus with 18 samples.

Results

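The effect of losing Quaking on the change that mouse embryonic stem cells go through over 10 days of differentiation was measured as an interaction. For each gene, the change from day 0 to day 10 in Quaking knockout (KO) cells was set against the same change in wild type (WT) cells. The comparison used 12 of the 18 libraries of the series, chosen by their labels, in 4 groups of 3: WT at day 0, WT at day 10, Quaking KO at day 0 and Quaking KO at day 10. The remaining 6 libraries, of Sam68 KO cells at day 0 and day 10, did not enter the contrast and are given beside it, although all 18 shared the filter, scaling and estimate of spread of 1 fit. All lines came from E14, a mouse embryonic stem cell line, and WT means the unedited E14 line. Day 0 cells were stem cells and day 10 samples were embryoid bodies, aggregates in which stem cells form early embryonic cell types. The series describes each group as a biological triplicate. How the knockout lines were made, and how many clones each group holds, is not given in the sources used here.

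The measurement was ribosome profiling. Cells were treated with cycloheximide, which stalls ribosomes on mRNA, RNA outside ribosomes was digested, and the protected fragments (footprints) were sequenced and counted per gene. Footprints of a gene depend on how much of its mRNA is present and on its rate of translation, which these data do not separate. In bulk samples such as these, fewer cells of a type and less RNA per cell cannot be told apart either.

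Quaking belongs to the STAR family of RNA-binding proteins, as does Sam68. It binds short motifs in introns and untranslated regions and is known to act on splicing, RNA stability, RNA transport and translation. In mice it is needed for yolk sac and blood vessel formation in the embryo, and it is also known from smooth muscle and from myelinating glia. Leaving pluripotency silences stem cell genes and turns on genes of the germ layers, so that a course between the 2 days holds both large rises and large falls.

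Total counts ranged from 988210 to 10646768 over the 12 libraries, and the 6 Quaking KO libraries (988210 to 3281358) were the shallower ones apart from WT day 10 replicate 3 (1175919). In that WT library 10 features held 70.4% of the counts, against 9.34% to 30.2% in the other 11, and 3 counts there equalled 7.05 CPM (the usual counts per library size, scaled across libraries), against 0.233 CPM in the deepest library. The sample descriptions carry a tag, MIX_1 for both day 0 groups, MIX_2 for WT at day 10 and MIX_3 for Quaking KO at day 10. MIX and line therefore cannot be told apart in the day 10 difference between WT and Quaking KO, or in the interaction. The Sam68 KO libraries carry MIX_2 at day 0 and MIX_3 at day 10. Genes appear here by Ensembl ID, because the sources used here do not pair the IDs with symbols. The state of Quaking itself and of cell type markers was for this reason not examined. Nor was the type of RNA behind each ID, so reads from non-coding RNA could not be told from footprints on mRNA.

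The time course differed between Quaking KO and WT for 1216 of 13701 genes tested, which is 8.88% (edgeR quasi-likelihood test, p below 0.05 after Benjamini-Hochberg adjustment). The day 10 to day 0 change was higher in Quaking KO than in WT for 701 genes (5.12%) and lower for 515 (3.76%). Among the 1216, the median absolute interaction was 1.59 on the log2 scale (quartiles 1.10 and 2.43), and 981 differed at least 2-fold in their change. At least 4-fold differences were found for 261 genes with a higher and 160 with a lower change in Quaking KO, and at least 8-fold ones for 116 and 65. Over all genes tested the median interaction was 0.07, with a median standard error (SE) of 0.41.

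The number of genes that changed was similar in both lines. In WT, 4778 genes (34.9%) rose and 4127 (30.1%) fell between day 0 and day 10, and in Quaking KO 4755 (34.7%) rose and 4022 (29.4%) fell. The lines differed far more often at day 10 than at day 0. At day 0 Quaking KO differed from WT for 50 genes, which were lower (0.365%), whereas at day 10 it was higher for 1523 (11.1%) and lower for 1756 (12.8%) in the same edgeR fit. The day 0 comparison lies within MIX_1, whereas the day 10 one sets MIX_3 (Quaking KO) against MIX_2 (WT). Line and MIX therefore cannot be told apart in this contrast between the days. Of the 1216 genes with a different course, 1141 also differed between the lines at day 10 and 23 at day 0. The median absolute difference between the lines over the 1216 genes was 0.27 (log2) at day 0 and 1.38 at day 10, beside 0.19 and 0.44 over all genes tested. The 1216 were selected on values that enter this difference.

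The 1216 genes were sorted by what each line did. A course was blunted where WT changed and Quaking KO changed less, exaggerated where Quaking KO changed and did so more than WT, and reversed where both changed past the same threshold in opposite directions. Exaggerated courses were the most numerous, with 710 genes (58.4% of the 1216), followed by blunted courses with 413 (34%) and reversed ones with 92 (7.57%). A single gene fell in no class. Its log2 change was 1.58 in WT and -1.65 in Quaking KO, the latter larger in size but not past the threshold. By direction, there were 497 exaggerated rises, 247 blunted rises, 213 exaggerated falls, 166 blunted falls, 54 genes that rose in WT and fell in Quaking KO, and 38 that fell in WT and rose in Quaking KO. These classes are defined from the same values that were tested, so the sizes given within a class are descriptions.

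**Figure D1:**
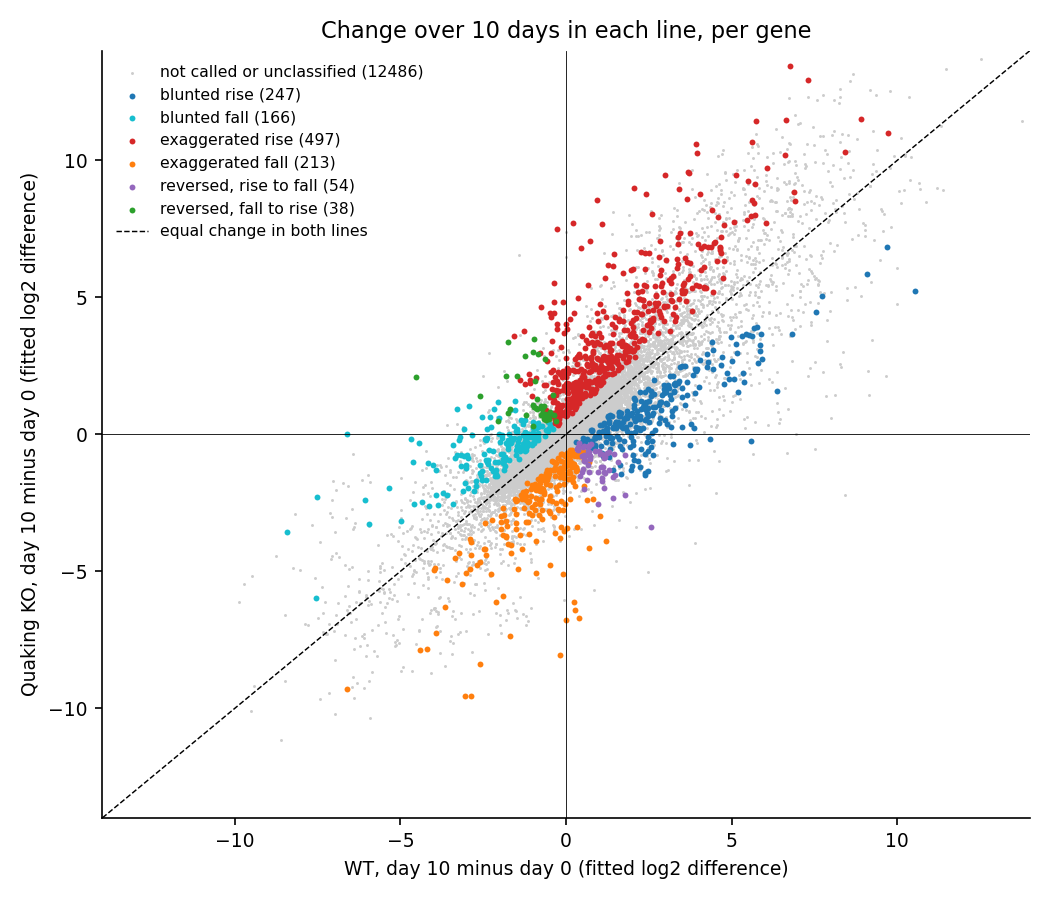
Change from day 0 to day 10 (fitted log2 difference) in WT on the horizontal axis and Quaking KO on the vertical axis, 1 point per gene, coloured by class with the number of genes in the key; the dashed line marks an equal change in both lines. Grey points (12486) hold the genes not called and the unclassified one. Red exaggerated rises (497) lie above the line, with a rise in Quaking KO, and blue blunted rises (247) lie below it.

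Blunted rises were the genes that WT turned up and Quaking KO turned up less or not past the threshold. Over these 247 genes the median log2 change was 2.37 in WT and 0.61 in Quaking KO, and the median interaction was -1.57. In 133 of the 247 the Quaking KO course was itself a rise past the threshold. At day 0 the lines were close for these genes, with a median log2 difference of -0.08, and at day 10 Quaking KO was lower by a median of -1.69 (log2), with 244 of the 247 called lower there.

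ENSMUSG00000024731.15 had the largest blunted rise under the naming rule. The rule asked for at least 20 CPM in the highest group and a call in each fit without 1 library. It also asked that the day 10 values, each taken against the day 0 mean, did not overlap between Quaking KO and WT. The WT level of this gene was 0.291, 0.419 and 0.466 CPM at day 0 and 23.5, 17.9 and 18.8 CPM at day 10. The Quaking KO level was 0.895, 2.30 and 2.18 CPM at day 0 and 0, 3.10 and 0.280 CPM at day 10. The 3 WT day 10 libraries stood above all 6 Quaking KO libraries, and the Quaking KO days overlapped. WT rose by 5.57 on the log2 scale, the Quaking KO change was -0.23 (adjusted p = 0.78 by edgeR), and the interaction was -5.80 (SE 0.88, edgeR adjusted p = 8.65e-05). At day 0 each Quaking KO library was above each WT library, on 14 and 11 counts in all. That difference was 2.02 (log2, SE 0.67) and was not called (edgeR adjusted p = 0.348). It enters the interaction beside the day 10 difference of -3.79. Quaking KO day 10 held 13 counts for this gene in all, 12 of them in replicate 2, and without that library the interaction was -8.41. It was -5.18 without Quaking KO day 10 replicate 3.

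ENSMUSG00000029322.12 rose in both lines, from 4.50, 1.40 and 2.33 CPM to 167, 138 and 143 CPM in WT. Quaking KO libraries went from 1.79, 5.17 and 4.37 CPM to 11.1, 22.7 and 26.6 CPM. The day 0 values of the lines overlapped and the day 10 values did not. Mean level rose 54.5-fold in WT and 5.34-fold in Quaking KO, an interaction of -3.20 (SE 0.58, edgeR adjusted p = 0.00172).

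Blunted falls were the genes that WT turned down and Quaking KO kept nearer to the stem cell level. The median log2 change over these 166 genes was -1.88 in WT and -0.34 in Quaking KO, with a median interaction of 1.26. In 74 of them Quaking KO also fell past the threshold. The median difference between the lines was -0.12 (log2) at day 0 and 1.16 at day 10, when 161 of the 166 were higher in Quaking KO. The size of this class moved with single libraries: it was 110 without WT day 0 replicate 3 and 106 without WT day 10 replicate 2.

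ENSMUSG00000020173.17 gave the smallest adjusted p of the named genes. In WT it fell from 226, 208 and 236 CPM to 5.40, 5.76 and 4.70 CPM, and in Quaking KO from 214, 276 and 223 CPM to 65.9, 55.5 and 63.6 CPM. The 4.70 CPM of WT day 10 replicate 3 rests on 2 counts, and without that library the interaction was 3.37. The lines overlapped at day 0, and at day 10 each Quaking KO library was above each WT library. The fall was 42.2-fold in WT and 3.85-fold in Quaking KO, an interaction of 3.38 (SE 0.21, edgeR adjusted p = 4.25e-10).

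ENSMUSG00000021194.6 showed the same form at a lower count. It was at 19.3, 20.0 and 18.6 CPM in WT day 0 and at 1.05, 0.886 and 2.35 CPM in WT day 10, the last group holding 12 counts in all. Quaking KO libraries went from 22.1, 18.9 and 19.7 CPM to 13.9, 7.75 and 9.81 CPM. WT fell 13.5-fold and Quaking KO 1.93-fold, an interaction of 3.13 (SE 0.48, edgeR adjusted p = 0.000112). With every library thinned to the smallest total the interaction was 2.25 and no longer passed (edgeR adjusted p = 0.147).

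Exaggerated rises, the largest class, were genes that rose more in Quaking KO. The median log2 change over the 497 genes was 1.10 in WT and 3.03 in Quaking KO, and the median interaction was 1.72. The WT course was past the threshold in 315 of them. At day 0 the median difference between Quaking KO and WT was -0.44 (log2) in this class and -0.30 in the reversals from fall to rise, and 19 of its genes were among the 50 called lower in Quaking KO. At day 10 the median difference was 1.20, and 430 of the 497 were called higher in Quaking KO. So a lower start and a higher end both entered the interaction of this class. In 19 of its genes Quaking KO had no count at day 0, in the shallower libraries of that group (1373377 to 3019843 counts, against 5413775 to 10646768 in WT day 0). With such groups set to the level of 3 counts per library, the median interaction of the class was 1.64 and the median Quaking KO change 2.96.

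Both genes named in this class had no Quaking KO count at day 0. ENSMUSG00000049988.4 was at 0.291, 0.279 and 0.311 CPM in WT day 0 (8 counts in all) and at 4.50, 4.65 and 7.05 CPM in WT day 10, the last on 3 counts. In Quaking KO day 10 it was at 32.5, 40.0 and 45.1 CPM. All 3 Quaking KO day 10 libraries stood above all WT libraries. WT rose 18.4-fold and Quaking KO at least 33.1-fold, taking 3 counts in each Quaking KO day 0 library as the limit. The WT ratio rests on those 8 day 0 counts, so the ratio of the 2 rises has no firm bound. The interaction passed the test (edgeR adjusted p = 0.0101), and its fitted log2 value of 6.70 (SE 1.63) depends on the day 0 zeros. With Quaking KO day 0 set to the level of 3 counts per library, the interaction was 0.85 (log2).

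ENSMUSG00000052085.6 was at 0.726, 0.838 and 0.543 CPM in WT day 0 and at 9.45, 12.2 and 11.7 CPM in WT day 10. In Quaking KO day 10 it was at 31.5, 31.5 and 29.4 CPM, again above each WT library. WT rose 15.8-fold and Quaking KO at least 26.0-fold, the WT ratio resting on 18 day 0 counts (fitted interaction 6.30, SE 1.43, edgeR adjusted p = 0.00607). With Quaking KO day 0 set to the level of 3 counts per library, the interaction was 0.72 (log2). Neither of these 2 genes kept its call when the libraries were thinned to the smallest total (edgeR adjusted p = 0.132 for ENSMUSG00000049988.4 and 0.183 for ENSMUSG00000052085.6).

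Exaggerated falls were genes that Quaking KO turned down further. Over these 213 genes the median log2 change was -0.53 in WT and -2.32 in Quaking KO, with a median interaction of -1.41, and 114 had a WT course past the threshold. The lines were close at day 0 (median log2 difference -0.08) and at day 10 Quaking KO was lower for 212 of the 213, by a median of -1.49 (log2). Quaking KO day 10 had no count for 8 of these genes, and with such groups at the level of 3 counts per library the median interaction was -1.35.

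ENSMUSG00000065770.1 fell in both lines, from 58.1, 79.3 and 51.1 CPM to 11.4, 29.9 and 11.7 CPM in WT. The Quaking KO values fell from 40.0, 51.1 and 95.5 CPM to 0, 0.775 and 0 CPM. The day 10 groups did not overlap. WT fell 3.55-fold, and the Quaking KO counts gave a ratio of 181 between the days (95% counting interval 61.6 to 880). The interaction was -5.67 (SE 0.96, edgeR adjusted p = 0.00146). All 3 Quaking KO day 10 counts lay in replicate 2, and without that library the group had none and the fitted interaction was -9.53. Leaving out replicate 3 of that group gave -4.91, and leaving out WT day 10 replicate 2 gave -4.93.

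ENSMUSG00000065232.1 was high and variable in WT, at 692, 1128 and 787 CPM at day 0 and 531, 1576 and 296 CPM at day 10, with no called change (edgeR adjusted p = 0.893). The Quaking KO values fell from 978, 1706 and 712 CPM to 21.3, 41.6 and 32.2 CPM. The lowest WT day 10 library was well above the highest Quaking KO day 10 library. The Quaking KO fall was 35.7-fold, and the interaction was -5.01 (SE 0.93, edgeR adjusted p = 0.00478), or -4.06 without WT day 10 replicate 2.

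Reversed courses were the least numerous. The 54 genes that rose in WT and fell in Quaking KO had median log2 changes of 0.75 and -0.88, and all 54 were lower in Quaking KO at day 10. The 38 genes that fell in WT and rose in Quaking KO had median changes of -0.87 and 0.92, and all 38 were higher in Quaking KO at day 10. Membership of these classes needs 2 courses past the threshold, and 24 of the 92 genes were classed as reversed in each of the 12 fits that left out 1 library, although 78 of the 92 stayed called in the interaction in each. The first class counted 32 genes without WT day 0 replicate 3, and the second 22 without WT day 10 replicate 2.

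ENSMUSG00000074652.3 rose in WT from 7.26, 6.70 and 6.37 CPM to 13.3, 15.5 and 35.2 CPM. In Quaking KO it fell from 4.47, 3.45 and 4.37 CPM to 0, 0.775 and 1.12 CPM, the last group holding 7 counts. Quaking KO was below WT in every library at both days, although the day 0 difference was not called (edgeR adjusted p = 0.843). The interaction was -3.74 (SE 0.70, edgeR adjusted p = 0.000854).

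ENSMUSG00000020937.14 rose in WT from 79.9, 126 and 96.0 CPM to 109, 234 and 320 CPM. In Quaking KO it fell from 79.6, 82.7 and 88.3 CPM to 21.3, 24.3 and 30.0 CPM. The WT days overlapped by 1 library, and the Quaking KO days did not. The mean rose 2.19-fold in WT (edgeR adjusted p = 0.0157) and fell 3.32-fold in Quaking KO, an interaction of -2.78 (SE 0.52, edgeR adjusted p = 0.00424).

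In the opposite direction, ENSMUSG00000071637.5 fell in WT from 12.6, 10.3 and 8.38 CPM to 7.35, 2.44 and 7.05 CPM, the last on 3 counts. In Quaking KO it rose from 6.86, 5.17 and 4.99 CPM to 77.9, 50.9 and 68.4 CPM. The lowest Quaking KO day 10 value, 50.9 CPM, was above the highest of the other 3 groups, 12.6 CPM. The mean fell 1.86-fold in WT (edgeR adjusted p = 0.0163) and rose 11.6-fold in Quaking KO, an interaction of 4.47 (SE 0.48, edgeR adjusted p = 1.58e-06). The interaction was 4.00 without WT day 10 replicate 2 and 5.28 without WT day 10 replicate 1.

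ENSMUSG00000030830.18 was at 4.21, 11.3 and 5.43 CPM in WT day 0 and at 3.75, 1.99 and 2.35 CPM in WT day 10, the last on 1 count. In Quaking KO it rose from 9.84, 2.87 and 3.43 CPM to 39.0, 38.0 and 47.4 CPM. The lines overlapped at day 0 and were far apart at day 10. The mean fell 2.59-fold in WT (edgeR adjusted p = 0.016) and rose 7.70-fold in Quaking KO, an interaction of 4.11 (SE 0.59, edgeR adjusted p = 4.82e-05). The interaction was 3.61 without WT day 0 replicate 2 and 4.96 without Quaking KO day 0 replicate 1.

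**Figure D2:**
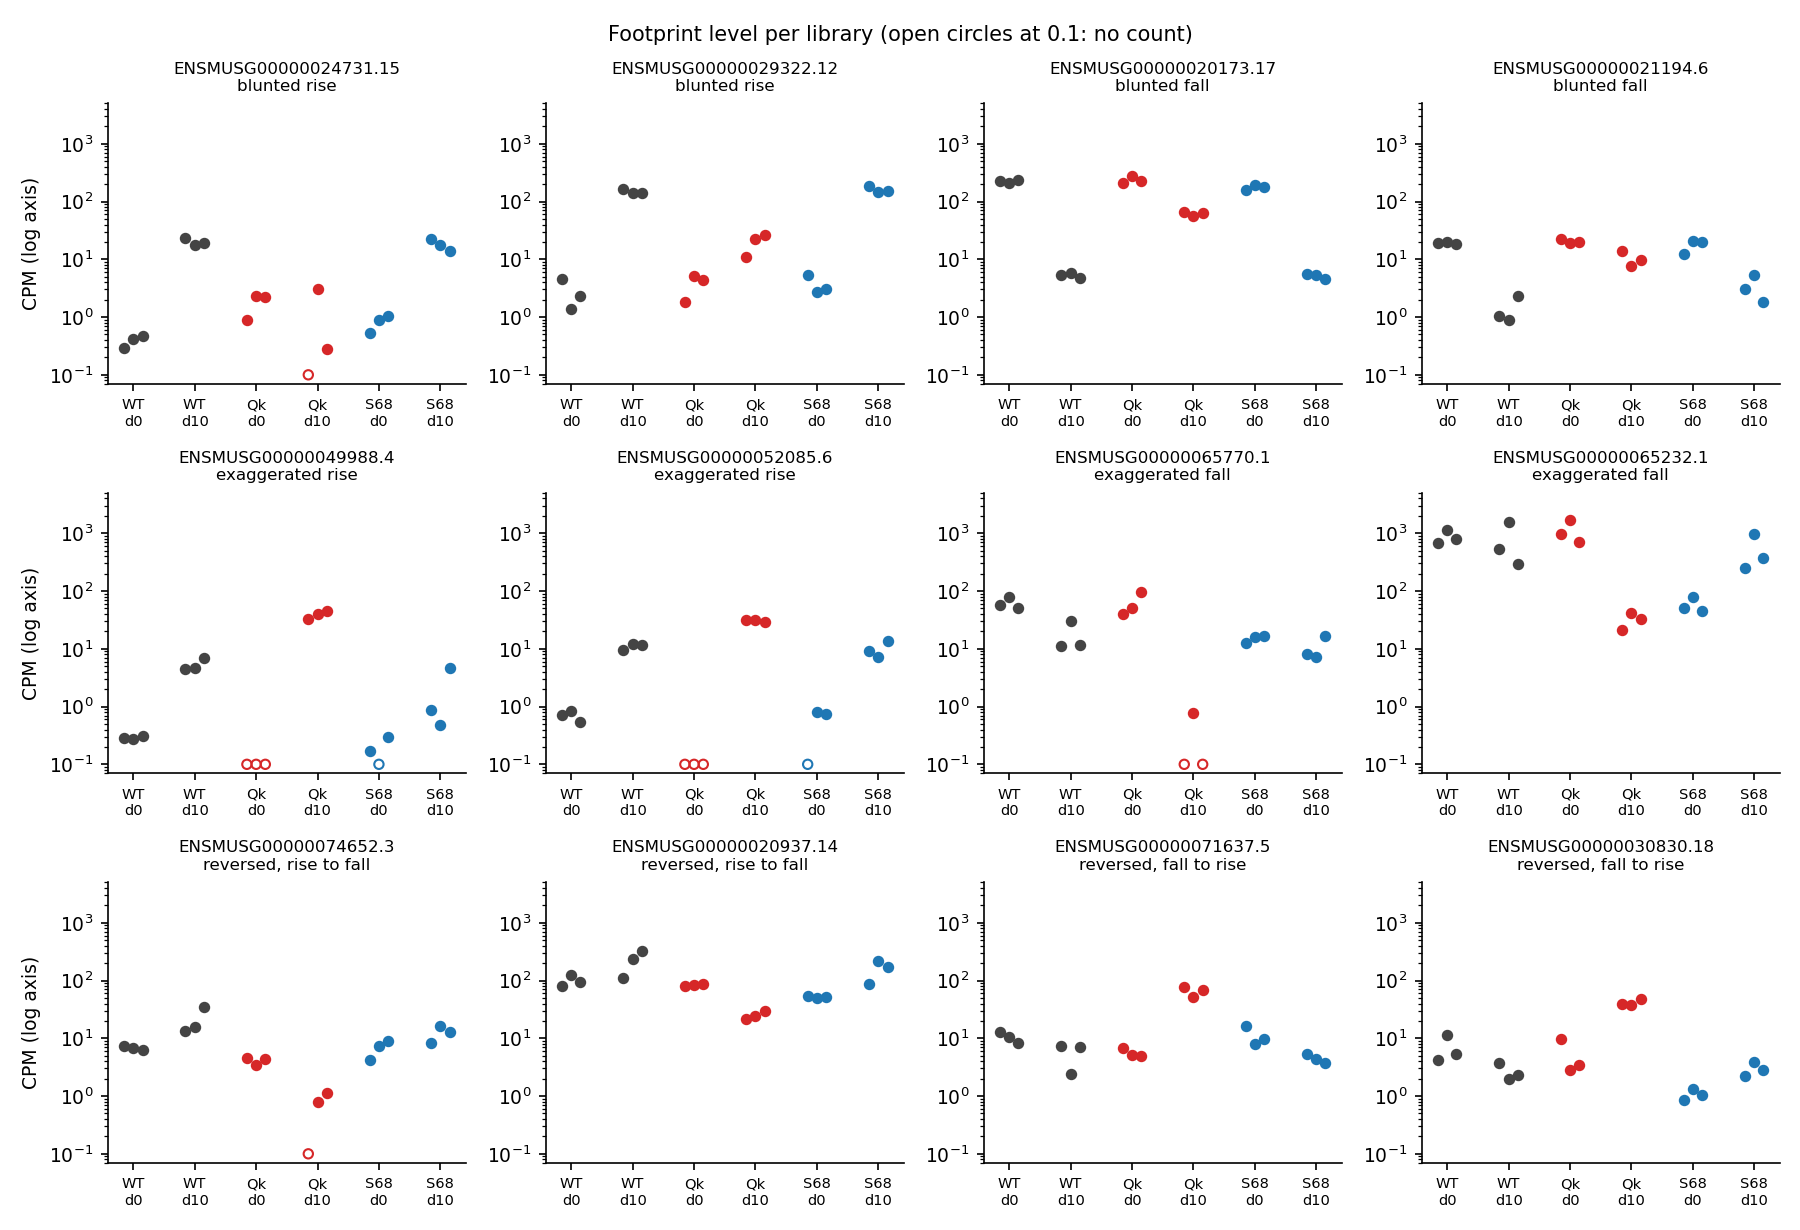
Footprint level (CPM, log axis) of the 12 named genes in each of the 18 libraries, 1 point per library, for WT (grey), Quaking KO (red) and Sam68 KO (blue, S68) at day 0 (d0) and day 10 (d10); open circles at 0.1 are libraries with no count. In each panel the 3 Quaking KO day 10 points stand apart from the 3 WT day 10 points, as for ENSMUSG00000020173.17 with 55.5 to 65.9 CPM against 4.70 (2 counts) to 5.76 CPM. The genes were chosen for changes that do not overlap between these lines, so the separation follows in large part from the choice.

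The Sam68 KO libraries showed what a line outside the contrast did with the same genes. Of the 247 blunted rises, 233 rose in Sam68 KO (94.3%, against 34.9% of all genes tested), with a median log2 change of 2.06. Of the 166 blunted falls, 151 fell in Sam68 KO (91%, against 30.5% of all genes), with a median of -1.64. Both medians lay close to those of WT, 2.37 and -1.88, rather than those of Quaking KO, 0.61 and -0.34. WT and Sam68 KO share no library in these 2 courses. Membership of these classes needs a called WT change in the same direction. The shares of all genes, picked by no such rule, are therefore not a like background.

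For exaggerated rises, 338 of 497 rose in Sam68 KO (68%) and 19 fell, with a median of 1.30, against 1.10 in WT and 3.03 in Quaking KO. For exaggerated falls, 129 of 213 fell in Sam68 KO (60.6%) and 11 rose, with a median of -0.71. Of the 54 genes that rose in WT and fell in Quaking KO, 34 rose in Sam68 KO, and of the 38 with the opposite reversal 24 fell and 1 rose. That last gene is ENSMUSG00000030830.18, whose Sam68 KO mean rose 2.77-fold from 1.07 ± 0.222 CPM to 2.95 ± 0.794 CPM (SD, n = 3; edgeR adjusted p = 0.0351).

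The Sam68 KO change was nearer to that of WT than to that of Quaking KO for 1092 of the 1216 genes (89.8%), against 67.1% of all genes tested. The 1216 were picked for a difference between the WT and Quaking KO changes, the same values that define nearer. The share over all genes is therefore not a like background. By class this share ran from 84.6% for blunted rises to 94.4% for exaggerated falls. In Sam68 KO day 10 replicates 2 and 3, as in WT day 10 replicate 3, few features held most counts (10 features held 60.2% and 64.4%). Without these 3 libraries the share was 90.8% over the genes called in that fit and 66.7% over all genes tested. Only replicate 1 was then left in the Sam68 KO day 10 group, so these shares rest on that library for Sam68 KO day 10. For ENSMUSG00000020173.17 the Sam68 KO mean fell from 177 ± 15.7 to 5.14 ± 0.463 CPM (SD, n = 3), beside a WT fall from 223 ± 14.1 to 5.29 ± 0.539 CPM. For ENSMUSG00000029322.12 it rose from 3.73 ± 1.43 to 161 ± 20.6 CPM, beside a WT rise from 2.74 ± 1.59 to 149 ± 15.4 CPM. An exception was ENSMUSG00000065232.1, which was at 58.8 ± 18.8 CPM in Sam68 KO day 0, well under the 869 ± 229 CPM of WT day 0, and rose to 538 ± 388 CPM at day 10 (edgeR adjusted p = 0.00102). ENSMUSG00000065770.1 was at 15.0 ± 2.18 CPM in Sam68 KO day 0, beside 62.8 ± 14.7 CPM in WT day 0, and at 10.6 ± 5.25 CPM at day 10, with no called change (edgeR adjusted p = 0.211). ENSMUSG00000049988.4 held only 3 counts in Sam68 KO day 0, and its counts rose by a ratio of 8.77 (95% counting interval 2.41 to 48.0).

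**Figure D3:**
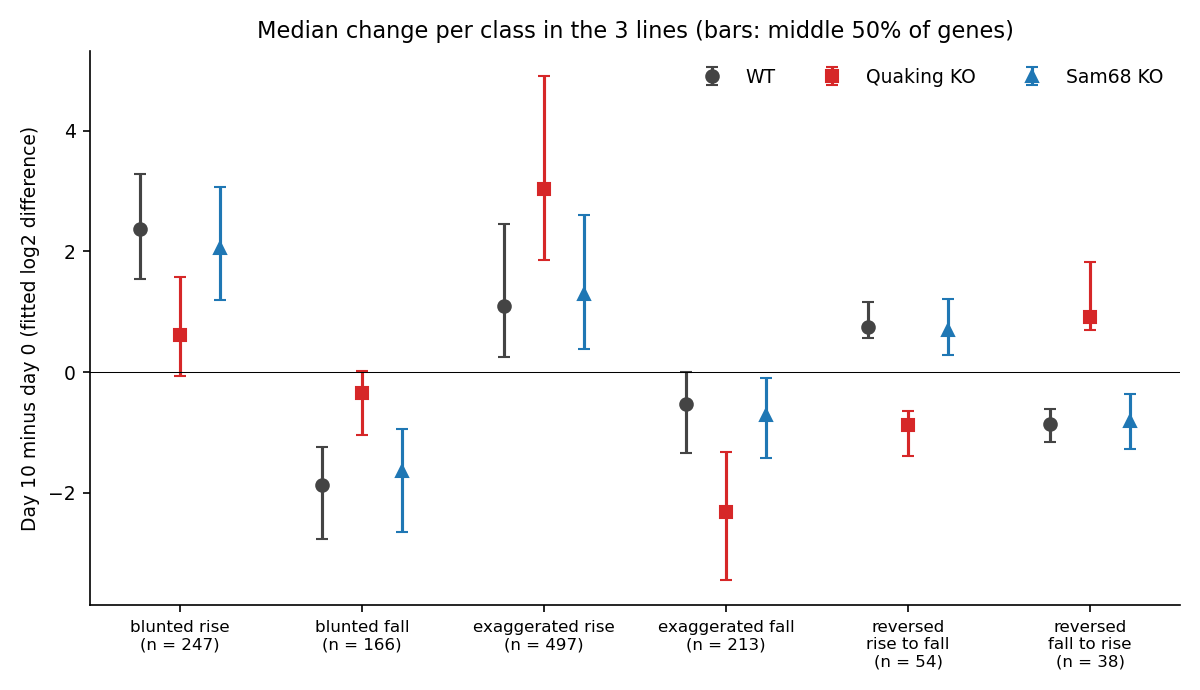
Median change from day 0 to day 10 (fitted log2 difference, vertical axis) in WT (grey circles), Quaking KO (red squares) and Sam68 KO (blue triangles) for each class of genes; bars span the middle 50% of genes, not an error. The classes were made from WT and Quaking KO values, and the Sam68 KO medians, such as 2.06 for blunted rises, lie beside those of WT (2.37) in each class.

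Quaking KO and Sam68 KO at day 10 carry the same tag, MIX_3, so their difference lies within it. In that comparison Quaking KO was higher for 1455 genes (10.6% of those tested) and lower for 1787 (13%). Among blunted rises 235 of 247 were lower in Quaking KO than in Sam68 KO, and among blunted falls 129 of 166 were higher. Among exaggerated rises 395 of 497 were higher, and among exaggerated falls 197 of 213 were lower. For reversed courses the counts were 52 of 54 lower and 36 of 38 higher. These values share the Quaking KO day 10 libraries with the interaction and are given as the difference within a tag, not as separate evidence.

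The 12 named genes each differed in that comparison too (edgeR adjusted p at most 0.00187). ENSMUSG00000024731.15 was lower in Quaking KO than in Sam68 KO at day 10 by -3.66 on the log2 scale (SE 0.52), beside -3.79 against WT. ENSMUSG00000071637.5 was higher by 3.76 (SE 0.35), beside 3.62 against WT. ENSMUSG00000021194.6 was higher by 1.52 (SE 0.34), beside 3.21 (SE 0.41) against WT, its Sam68 KO mean at day 10 being 3.38 ± 1.73 CPM (SD, n = 3), beside 1.43 ± 0.802 CPM in WT.

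Differentiation genes could be grouped without symbols by what they did in Sam68 KO, whose libraries do not enter the contrast but share its fit; this grouping was chosen after the data had been seen. Of 3773 genes (27.5%) that rose at least 2-fold there, the interaction was higher for 275 (7.29%) and lower for 231 (6.12%), with a median of 0.11. These genes held 274 of the 497 exaggerated rises and 207 of the 247 blunted rises. Of 2748 genes (20.1%) that fell at least 2-fold, it was higher for 144 (5.24%) and lower for 78 (2.84%), with a median of 0.06, and these held 118 blunted and 78 exaggerated falls. The background over all genes was 5.12% and 3.76%, with a median of 0.07. No test compared these shares with the background, and the share called rose with level. Among the rising genes the balance turned with DESeq2, to 256 higher and 283 lower. It also turned with no filter on low counts, to 202 and 219, and with thinning, to 110 and 145.

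Cell cycle genes were taken from marker lists that mark 1 phase each, chosen after the data had been seen. Of these, 3 of 55 G1 genes were called, all lower (median interaction -0.13). For S phase 4 of 100 were called, 3 of them higher (median 0.01), and for G2/M 3 of 52, 2 of them higher (median 0.06). The share called lower was 5.45% for G1, 1% for S and 1.92% for G2/M, against 3.76% of all genes, and the share called higher was 3% for S and 3.85% for G2/M, against 5.12%. With 1 to 3 genes behind each share, no difference from the background is read from them.

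Calls depended on level. With the genes split into 4 equal bins by mean CPM over the 12 libraries, 3.74% were called in the lowest bin, and 8%, 10.5% and 13.3% in the next ones. The median absolute interaction of the called genes ran the other way, from 3.47 (log2) in the lowest bin to 1.11 in the highest, and the median SE over all genes of a bin from 1.05 to 0.23. A small difference in course was therefore not detectable at this depth for genes of low level.

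The features that took over 10% of a library were not called. ENSMUSG00000064339.1 and ENSMUSG00000064337.1 held 17.9% and 14.6% of the counts of WT day 10 replicate 3, and 8.02% and 6.30% of Quaking KO day 10 replicate 2. Their interactions were -3.78 (SE 2.55) and -4.09 (SE 2.76), each with an edgeR adjusted p of 0.431. ENSMUSG00000058488.7 held 3.04% of the counts in Quaking KO day 10 replicate 2 and 23.2% and 20.7% in replicates 1 and 3 of that group, with an interaction of -1.09 (SE 0.83, edgeR adjusted p = 0.497).

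The calls were compared across single libraries and other settings. The values of the 3 Quaking KO day 10 libraries, each taken against the day 0 mean, did not overlap the same 3 WT values for 1177 of the 1216 genes, against 34.4% of all genes tested. This separation follows in large part from the calls, which used the same libraries, and adds no support to them. Leaving out 1 library at a time gave 899 to 1306 called genes, the lowest without Quaking KO day 0 replicate 3 and the highest without WT day 10 replicate 3, and 643 of the 1216 were called with the same sign in all 12 fits. The excess of higher over lower calls did not hold in every setting: with no filter on low counts there were 504 higher and 515 lower, and with every library thinned to the smallest total 287 higher and 324 lower.

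**Figure D4:**
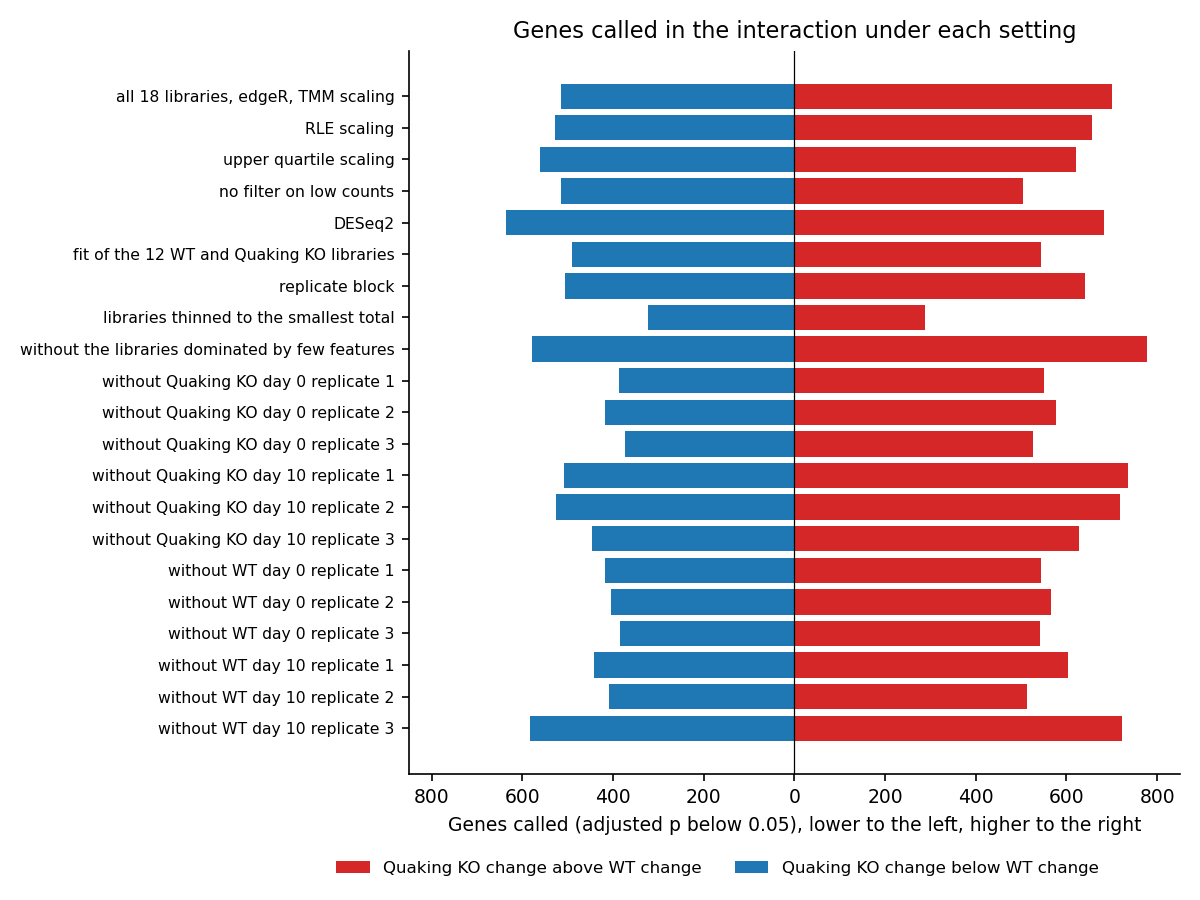
Number of genes called in the interaction (edgeR, or DESeq2 where named, adjusted p below 0.05) under each setting, with genes whose change was higher in Quaking KO to the right (red) and lower to the left (blue). All 18 libraries as deposited gave 701 and 515; thinning to the smallest total gave the fewest calls, 287 and 324.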

How the data were processed

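Per the labels, each sample had a deposited table of whole-number counts of footprints for 51826 versioned Ensembl IDs. The submitters' processing notes name STAR 2.5.3a, Bowtie2, bcl2fastq 2.17.1.14 and the builds GRCm38 and mm10. Not given in the sources used here are the counter, the annotation release and whether strand was used, so overlapping, antisense and near-identical genes are uncertain.

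The deposited counts of all 18 libraries were fitted with edgeR 4.0.16 (R 4.3.3): TMM scaling, the default filter on low counts by group (13701 of 33167 genes with any count kept), 1 mean per group, and a robust quasi-likelihood test, two-sided, with calls below an adjusted p of 0.05 (Benjamini-Hochberg). The common biological coefficient of variation was 0.229. CPM use the TMM library sizes. Overlap of changes between the lines was judged on log2(CPM + 0.5), each day 10 value taken against the day 0 mean. Totals were 988210 to 10646768 counts; floors of 3 counts and the exact binomial counting intervals (95%) cover counting error only.

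Every pair of replicates differed by more than sampling noise (the lowest chi-square was 4.80 per degree of freedom). Replicate numbers did not pair libraries across groups.

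A RefSeq table of 49997 GRCm38 genes held 0 of the Ensembl IDs, so lists by symbol, knockout and marker checks, sequences and the setting without mitochondrial genes were not run. The naming rule, given with the first named gene, then took at most 2 IDs per class by absolute interaction, plus features over 10% of a library. Members and lists were chosen with earlier results of these data known. Cell cycle lists came from scran 1.30.0. Alternatives were DESeq2 1.42.0, upper quartile or RLE scaling, no filter, the 12 libraries alone, a replicate block, thinning, leaving out libraries in which 10 features held over 40% of counts, and leaving out each library.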

Additional observations from a re-analysis of the deposited data

Results flagged for a closer look

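The results below come from a test of the difference itself, that is, of whether Quaking KO and WT changed differently between day 0 and day 10 (edgeR interaction, adjusted p below 0.05). It was passed by 1216 genes, namely 247 blunted rises, 166 blunted falls, 497 exaggerated rises, 213 exaggerated falls, 54 reversals from rise to fall and 38 from fall to rise, beside 1 gene in no class. Among blunted rises, the interaction (log2) was -5.80 for ENSMUSG00000024731.15 and -3.20 for ENSMUSG00000029322.12. Among blunted falls it was 3.38 for ENSMUSG00000020173.17 and 3.13 for ENSMUSG00000021194.6. Among exaggerated rises it was 6.70 for ENSMUSG00000049988.4 and 6.30 for ENSMUSG00000052085.6, both fitted against no count in Quaking KO day 0 and therefore dependent on the fit. With that group at the level of 3 counts per library, the interactions of these genes were 0.85 and 0.72. In the same test, among exaggerated falls it was -5.67 for ENSMUSG00000065770.1 and -5.01 for ENSMUSG00000065232.1. Among reversals it was -3.74 for ENSMUSG00000074652.3, -2.78 for ENSMUSG00000020937.14, 4.47 for ENSMUSG00000071637.5 and 4.11 for ENSMUSG00000030830.18.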

How the results depend on the processing

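None of the 1216 genes changed sign under any alternative that tested it. RLE scaling called 1185 genes, upper quartile scaling 1183, no filter 1019, DESeq2 1319, the 12 libraries alone 1035, and leaving out the 3 libraries dominated by few features 1355. Thinning called 611 genes (287 higher, 324 lower): 163 blunted rises, 73 blunted falls, 202 exaggerated rises, 133 exaggerated falls, 28 reversals from rise to fall and 12 from fall to rise. Without a filter the reversals numbered 34 and 23. Thinning leaves fewer reads and no filter tests more genes. Leaving out each library in turn gave 106 to 200 blunted falls, 32 to 64 reversals from rise to fall and 22 to 48 from fall to rise. Depth limits the Quaking KO day 0 zeros and WT day 10 replicate 3. Replicate numbers did not pair libraries (correlations of same-numbered deviations -0.171 to 0.0978), and with a replicate block 1145 genes were called. The setting without mitochondrial genes was not run.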
